A study of Equus caballus with 34 samples.

Results

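The wall of the equine dominant follicle, the theca with its steroid cells, stroma, vessels and resident leukocytes, was compared between the late dominant (LD) and the early dominant (ED) stage. The samples are the 14 theca wall (TW) arrays titled TW LD (9 arrays) or TW ED (5 arrays), out of 34 arrays in the series. The other 20 are 5 arrays of the preovulatory (PO) theca wall and 15 arrays of granulosa cells (GC), the inner layer, at the same 3 stages. Each array measured Cy3-labelled RNA of 1 sample on a single-colour Agilent platform, and the samples are called biological replicates. Labels give the tissue and the stage only: the mares' ages, breeds and treatments, the follicle diameters and whether the 2 layers came from the same follicles are not given in the sources used here. The design text plans 5 samples per group, and since no label says which 5 of the 9 LD samples were meant, all 9 were used. Array numbers below only name arrays.

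In a mare, 1 follicle usually becomes dominant and grows for several days before a surge of luteinizing hormone (LH) makes it ovulate. The theca interna responds to LH by taking up or making cholesterol and turning it, through STAR, CYP11A1, HSD3B and CYP17A1, into androgens, which the granulosa cells aromatise to estrogens with CYP19A1. Granulosa cells send hedgehog ligands outward, and the theca answers through the receptor PTCH1 and the transcription factor GLI1. A growing wall needs dividing cells, and division draws on cyclins, kinesins, spindle checkpoint kinases and histones. A wall is a mixture of cell types, and in bulk RNA fewer cells of a type and less RNA per cell cannot be told apart.

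Expression is the log2 processed signal of a probe minus the 75th percentile of its array, so 0 marks that percentile. Levels are compared between arrays for the same probe, never between probes. A change is the LD mean minus the ED mean with its standard error (SE) from limma, fitted on the 19 theca wall arrays, and a gene is called where the Benjamini-Hochberg adjusted p over all 27161 tested features (1 probe per named gene, every unnamed probe) is under 0.05.

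At that threshold the stages differed in 10 features, 0.0368% of those tested, of which 4 rose (0.0147%) and 6 fell (0.0221%) from ED to LD. STMN1, CCND2 and KIF15 fell, and histone H2B gene H2BC21 rose. At an unadjusted p under 0.05, 15.1% of the features differed, 1916 of them higher (7.05%) and 2190 lower (8.06%). The median change over all features was 0.02, and 1342 features differed by at least 2-fold. In 236 features (0.869%) no ED array overlapped any LD array, with 92 of them higher (0.339%) and 144 lower (0.53%) at LD.

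Probe sequences show what was hybridised. The CCND2, KIF15 and A_69_P082701 probes stand for features that fell, and each is printed 5′ to 3′ as the array file gives it. The CCND2 probe lies at chr6:32322239-32322298 on the plus strand, KIF15 at chr16:41677601-41677660 on the minus strand and A_69_P082701 at chr3:62538932-62538991 on the minus strand. Coordinates are those of the array files, and no source used here names their genome build, and exon or untranslated region annotations were not used here.
CCND2: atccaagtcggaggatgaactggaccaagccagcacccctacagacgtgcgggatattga
KIF15: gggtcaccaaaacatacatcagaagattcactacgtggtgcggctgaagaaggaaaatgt
A_69_P082701: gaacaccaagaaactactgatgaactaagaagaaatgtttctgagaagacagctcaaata
Read in its 3 forward frames, the CCND2 and KIF15 probes each have 2 frames without a stop codon, and A_69_P082701, a feature with the description "Unknown", has 1.

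The second set shows the histone stem-loop, the hairpin that ends replication-dependent histone messages in place of a poly(A) tail. The palindrome is in capitals, and up to 6 bases follow it.
H2BC21: aaaGGCTCTTTTCAGAGCCacccac
A_69_P076071: aaaGGCTCTTTTCAGAGCCacccac
A_69_P110771: aaaGGCTCTTTTCAGAGCCacccac
The letters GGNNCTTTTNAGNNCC, searched on both strands, were found in 13 of all 43603 probes (0.0298%), each time on the printed strand, and 11 of the 13 are described as histone genes. All 3 probes shown come from 1 stretch of unplaced sequence. H2BC21 lies at chrUn:79376485-79376544 on the minus strand. A_69_P076071, described as histone H3.2, lies at chrUn:79337892-79337951 on the plus strand, and A_69_P110771, which was given the name H2AC19, at chrUn:79336311-79336370 on the plus strand.

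Signal was above background for 68.5% to 79.9% of spots per array (median 76.2%), and 103 to 364 spots per array were saturated. On slide 7 (ED 4, LD 6 and LD 7) repeated probes scattered with a coefficient of variation of 19.8% to 28.3%, against 3.36% to 6.18% on the other 11 arrays, so results are also given without it. The slides that hold both stages are 1, 4, 6, 7 and 9. Theca markers were bright: CYP17A1, the androgen-making enzyme, averaged 5.39 ± 0.18 (SD, n = 5) at ED and was saturated on 5 of 5 ED and 8 of 9 LD arrays. Granulosa markers were present as well. The summed level of the 16 tested (of 19 listed) was 46.1 to 124 at ED, 47.8 to 111 at LD, 64.6 to 73.9 at PO and 156 to 449 on the GC arrays. Aromatase gene CYP19A1 read −2.44, −1.96, 2.77, −2.62 and 3.93 on ED arrays 1 to 5, and FSHR, the FSH receptor gene, was well above background on 2 of 5 ED and 3 of 9 LD arrays. ED 3 and ED 5 held more granulosa signal than the other ED arrays, and the calls without these 2 arrays are given below. All LD arrays stayed in that fit, although LD 2 and LD 5 had summed levels of 103 and 111, above the 91.7 of ED 3. Bright genes weigh most in a sum. By the list's median relative to the ED means, LD 2 (−0.13) and LD 5 (0.10) lay below ED 3 (0.67) and ED 5 (0.96). No probe was named for COL1A1, COL3A1 or PTPRC.

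CCND2 encodes cyclin D2, which carries growth signals into the first phase of the cell cycle. Its level was 3.78, 3.61, 3.69, 4.07 and 3.53 on the ED arrays and 2.61 to 3.05 on the LD arrays (median 2.83). Every LD array lay below every ED array. Means of 3.74 ± 0.21 (SD, n = 5) and 2.84 ± 0.15 (SD, n = 9) give a 1.87-fold fall (−0.90 ± 0.13 SE, limma adjusted p = 0.0265). Within slides 1, 4, 6, 7 and 9 the differences were −0.73, −0.61, −0.92, −1.37 and −0.80. Their common sign follows from the lack of overlap. The PO mean was 2.63.

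STMN1 encodes stathmin, a protein that destabilises microtubules and is abundant in dividing cells. ED arrays read 3.09, 3.03, 3.10, 3.73 and 2.89, and the 8 LD arrays with a usable spot read 1.74 to 2.35 (median 2.13). Again the stages did not overlap, and ED 4 was the highest array. The fall was 2.11-fold (−1.08 ± 0.15 SE, adjusted p = 0.0265), from 3.17 ± 0.33 (SD, n = 5) to 2.09 ± 0.20 (SD, n = 8), and a second probe gave −0.86. At PO the mean was 2.22.

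KIF15 encodes a kinesin that helps hold the 2 spindle poles apart. ED levels were −0.95, −1.67, −1.31, −0.13 and −1.96, and LD levels ran from −4.27 to −2.30 (median −2.84). No LD array reached the lowest ED array. The fall was 3.47-fold (−1.80 ± 0.31 SE, adjusted p = 0.0427), and the other 2 probes of the gene gave −1.59 and −1.37. Differences within slides 1, 4, 6, 7 and 9 were −1.83, −0.92, −1.97, −3.17 and −0.88.

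H2BC21 encodes a histone H2B, part of the protein core that DNA winds around. ED arrays read −0.49, −0.99, −1.06, −1.32 and −1.05, and LD arrays −0.17 to 1.34 (median 0.87). All LD arrays were above all ED arrays. The rise was 3.14-fold (1.65 ± 0.25 SE, adjusted p = 0.031), from −0.98 ± 0.31 (SD, n = 5) to 0.67 ± 0.55 (SD, n = 9), with within-slide differences of 1.36, 1.00, 1.81, 2.07 and 2.12. The PO mean was 0.53, and histone genes have near-identical copies, so the copy that was measured is uncertain.

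Of the 6 called features without a symbol, 2 are probes of a placenta cDNA clone that lie on the same strand 1008 and 1081 bases from the H2BC21 probe. A_69_P102158 read 0.89, 0.46, −0.06, 0.60 and −0.06 at ED and 1.01 to 2.46 (median 2.02) at LD, a 2.92-fold rise (1.55 ± 0.25 SE, adjusted p = 0.0354). A_69_P102156 read −0.06, 0.01, −0.76, 0.28 and −0.38 at ED and 0.46 to 2.19 (median 1.85) at LD, a 3.36-fold rise (1.75 ± 0.30 SE, adjusted p = 0.0427). Another probe of the clone, A_69_P102157, was 1.32 ± 0.26 SE higher without passing (adjusted p = 0.067). Neighbouring probes of 1 clone share their target and are not separate results.

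A_69_P080101, for a gene described as killer cell lectin-like receptor subfamily G member 2, read −3.95, −4.09, −3.93, −4.72 and −3.53 at ED and −3.28 to −2.51 (median −2.78) at LD. It rose 2.19-fold (1.13 ± 0.18 SE, adjusted p = 0.0346). The lymphocyte clone A_69_P112771 fell 1.77-fold (−0.82 ± 0.13 SE, adjusted p = 0.0354), from ED values of −0.69, −0.49, −0.25, −0.26 and −0.51 to LD values of −1.57 to −0.97 (median −1.23). Leukocyte clone A_69_P103151 fell by 0.69 ± 0.12 SE (adjusted p = 0.0427), from ED values of 0.91, 1.19, 1.03, 1.37 and 0.96 to LD values of 0.18 to 0.72 (median 0.35). In these 3 features too the stages did not overlap.

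A_69_P082701 read −4.58, −5.45, −4.84, −4.09 and −5.75 at ED and −9.25 to −6.44 (median −7.22) at LD. It was well above background on 5 of 5 ED and 2 of 9 LD arrays, so the size of its fall (−2.46 ± 0.43 SE, adjusted p = 0.0427) is not exact. With normexp background correction its change was 0.01, and the direction was lost.

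**Figure D1:**
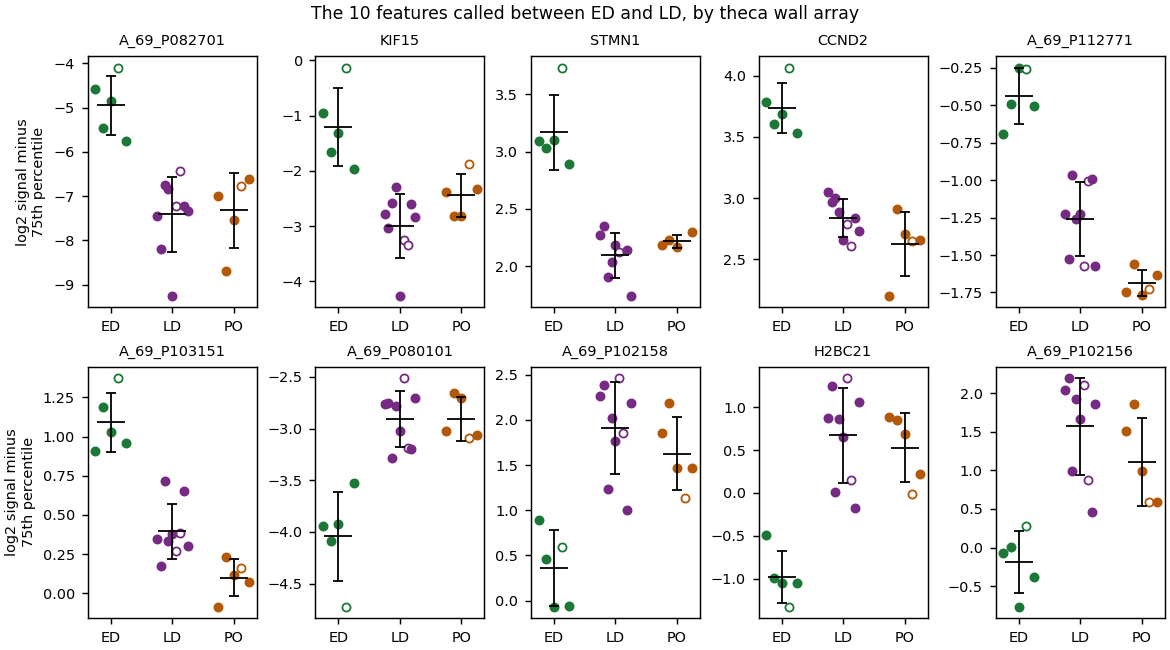
Expression of the 10 called features on each theca wall array (log2 processed signal minus the array's 75th percentile), by stage. Dots are arrays, open dots those of slide 7, and bars the mean ± SD. In each panel the ED and LD arrays occupy separate ranges, over 5 ED and 9 LD arrays, or 8 LD arrays for STMN1.

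The calls depended on the number and choice of arrays. Without slide 7 none of 27152 features passed (3097 at an unadjusted p under 0.05), although the changes kept their direction: STMN1 read −0.94 (adjusted p = 0.051), CCND2 −0.78 (0.164), H2BC21 1.55 (0.147) and KIF15 −1.44 (0.228). With slide as a fixed block none passed either (smallest adjusted p 0.0699, 4324 at an unadjusted p under 0.05). Without ED 3 and ED 5 the count was 4, all of them higher, HSD3B2 included, and 1 was among the 10. CCND2 then read −0.98 and STMN1 −1.19 without passing (limma adjusted p = 0.0797 and 0.0502).

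Nearly all cell division genes read lower at LD. Of 68 listed genes, 64 were tested and 63 of these lay below 0. At an unadjusted p under 0.05, 51 (79.7%) were lower and 0 higher, against 8.06% and 7.05% of all features, while KIF15 alone passed the adjusted threshold. Their median change was −0.997, against 0.02 over all features, and ran from −1.96 to 0.08 over the members. In 11 members (17.2%, against 0.53% of all features) every LD array was below every ED array.

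The members span the whole cycle. CENPF, a kinetochore protein, had the lowest change (−1.96 ± 0.38 SE, adjusted p = 0.067), with ED values of −1.82, −2.21, −2.17, −0.72 and −3.03 and LD values of −5.60 to −3.34 (median −3.79). FOXM1, the transcription factor that switches on mitotic genes, read −1.85, and CDC20, an activator of the anaphase-promoting complex, −1.70. Spindle checkpoint kinases BUB1 and BUB1B read −1.52 and −1.55. CCNB2, a mitotic cyclin, read −1.53, and MKI67, the source of the Ki-67 proliferation marker, −1.46.

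Members of the list that act in DNA replication, named after their values were seen, lay below 0 without passing the adjusted threshold. MCM6, a subunit of the helicase that opens DNA, had ED values of 1.94, 1.71, 1.97, 2.57 and 1.49 and LD values of 0.67 to 1.48 (median 1.00), a difference of −0.91 ± 0.17 SE (adjusted p = 0.067). The highest LD array sat just below the lowest ED array. MCM5 (−0.99), GINS2 (−1.02) and TYMS, thymidylate synthase (−0.69), were lower at an unadjusted p under 0.05. Outside the list, the mitotic kinase NEK2 (−1.42), the early mitotic inhibitor FBXO5 (−0.81) and the nuclear lamina gene LMNB1 (−1.49) had no overlap between stages and adjusted p of 0.067 to 0.072.

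By array, the median of the 64 genes relative to their ED means was 0.18, −0.53, 0.09, 0.86 and −0.49 on ED 1 to 5. On LD 1 to 9 it was −0.38, −0.89, −1.15, −0.70, −2.13, −0.61, −0.96, −1.33 and −0.93. LD 5 was the lowest array and ED 4 the highest, and LD 1 overlapped the ED range. Within slides 1, 4, 6, 7 and 9 the median difference was −0.65, −0.56, −1.49, −1.65 and −0.43. The median was −0.90 without slide 7, −1.11 without ED 3 and ED 5, and between −1.16 and −0.79 when 1 array was left out at a time, with 45 to 56 members at an unadjusted p under 0.05. PO arrays read −0.63 to −0.09 on this scale, 7 of the 9 LD arrays lay below all of them, and the median change from ED to PO was −0.35.

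**Figure D2:**
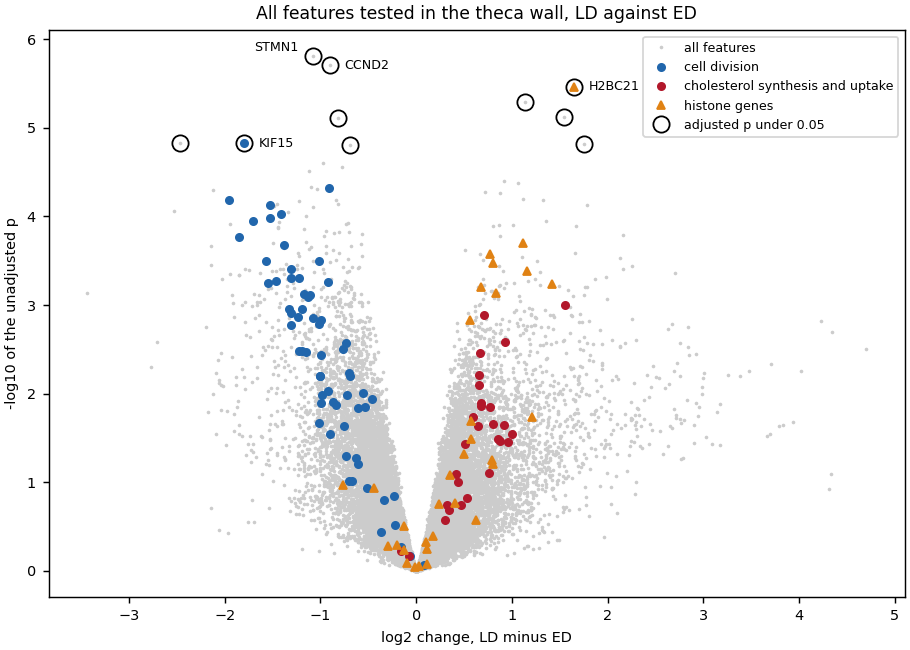
Change from ED to LD (log2, horizontal) against −log10 of the unadjusted p (vertical) for all 27161 tested features, with cell division, cholesterol and histone genes coloured and called features marked. Cell division genes lie on the lower side, down to −1.96, and 26 of 28 cholesterol and 24 of 32 histone genes on the higher side.

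D-type cyclins and cell cycle inhibitors did not move as 1 group. Of 20 tested, CCND2 was the member that passed, and the median was 0.22. At an unadjusted p under 0.05, 4 were higher (20.0%, against 7.05% of all features), namely CDKN1A (0.84) and CDKN1B (0.54), which block cyclin-dependent kinases, and the antiproliferative genes BTG1 (0.75) and BTG2 (1.55). That count ran from 0 (without ED 1) to 5 with 1 array left out, and was 1 without ED 3 and ED 5. CCND2 and CDKN2C (−0.55) were lower (10.0%, against 8.06%).

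Of 32 histone genes tested with a symbol, 24 lay above 0 at LD, and the median was 0.45 (range −0.76 to 1.65). At an unadjusted p under 0.05, 13 were higher (40.6%, against 7.05% of all features) and 0 lower, while H2BC21 alone passed the adjusted threshold. There were 10 to 15 such members with 1 array left out, and 9 without ED 3 and ED 5. In 4 members (12.5%, against 0.339% of all features), H2BC21, H2AC6, H2AC9 and H2AC10, the LD arrays lay wholly above the ED arrays. The probes of H2AC5, H2AC6, H2AC9 and H2AC19 have similar sequences and may share targets. The members are therefore not independent, and the counts and shares above may repeat 1 signal. H2AC6 had ED values of 1.55, 1.15, 1.36, 0.97 and 1.29 and LD values of 1.72 to 2.70 (median 2.03), a change of 0.77 ± 0.17 SE (adjusted p = 0.0912). H2AC9 read 0.80 (adjusted p = 0.097), H2AC5 1.12 (0.0862) and the linker histone H1-2 1.42 (0.104). The replacement histone H3-3A, whose message carries a poly(A) tail and is made outside replication, read −0.02, and MACROH2A1 read −0.13. Values near or below 0 were not particular to these 2 genes. H4C14 read −0.44, H1-5 −0.29, H4C8 −0.13, H2BC3 −0.10 and H2BC5 0.03.

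Neighbouring probes gave different values in the unplaced stretch around H2BC21. The H3.2 stem-loop probe A_69_P076071 was 1.79 ± 0.35 SE higher at LD (adjusted p = 0.067), while A_69_P076056, an H3.2 probe 119 bases away on the same strand, read 0.15 ± 0.20 SE (adjusted p = 0.775). The stem-loop probe A_69_P110771, named H2AC19, read 1.86 ± 0.41 SE (adjusted p = 0.0791 among all probes). Another probe given that name, A_69_P076061, read 1.15 ± 0.27 SE (0.0973). It lies at chrUn:79326433-79326492 on the minus strand, so the 2 may not measure the same gene copy. H4C14 in the same stretch read −0.44. Among the 7 tested features whose probe holds the stem-loop letters, the median was 0.41. At an unadjusted p under 0.05, 3 were higher (42.9%, against 7.05% of all features), H2BC21 included, and 1 was lower (against 8.06% of all features). RNA was primed with oligo(dT) per the labels, so these probes report molecules that an oligo(dT) primer reached, and the part of this in the result was not tested.

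Most cholesterol synthesis and uptake genes read higher at LD. Of 30 listed, 28 were tested, 26 lay above 0, and 18 (64.3%, against 7.05% of all features) were higher at an unadjusted p under 0.05. None passed the adjusted threshold, and the median change was 0.66. HMGCS1, an early enzyme of the pathway, read 0.87, FDFT1 (squalene synthase) 0.67 and INSIG1, a feedback regulator of sterol synthesis, 0.93. NPC2, which moves cholesterol out of lysosomes, read 0.71, and SCARB1, the HDL receptor gene, 0.80.

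SCARB1 had ED values of 1.33, 0.49, 1.33, 0.53 and 1.72 and LD values of 1.06 to 2.72 (median 1.90), and the stages overlapped (0.80 ± 0.32 SE, adjusted p = 0.254). HSD17B7, which acts in cholesterol synthesis and can also convert estrone, had the list's largest change (1.56 ± 0.36 SE, adjusted p = 0.11), from 4 usable ED spots at 1.79 to 3.15 and 5 LD spots at 3.88 to 4.63. The gene's other probe read 1.13 ± 0.36 SE. LD 1 was the array that did not share the shift: its median over the list was −0.28 relative to the ED means, against 0.44 to 1.12 on the other 8 LD arrays. Within slides the median difference was −0.31 on slide 1, which holds LD 1, and 0.60, 0.73, 1.16 and 0.18 on slides 4, 6, 7 and 9. Leaving out 1 array at a time gave medians of 0.51 to 0.77 but 9 (without ED 4) to 23 members at an unadjusted p under 0.05.

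None of the steroid genes that mark the theca passed the adjusted threshold, and the changes of the probes that stood for CYP17A1 and STAR were smaller than their SE. CYP17A1 read 0.01 ± 0.17 SE (adjusted p = 0.984), and its saturated spots give only a bound. STAR, which carries cholesterol into mitochondria, read 0.15 ± 0.32 SE, CYP11A1, the side-chain cleavage enzyme, 0.30 ± 0.28 SE, and INSL3, a theca hormone, 0.42 ± 0.28 SE. Other STAR probes read 0.39 ± 0.28, 0.48 ± 0.31 and 0.58 ± 0.37 SE, without passing the adjusted threshold. HSD3B2 read −3.18, −2.89, 3.80, −1.73 and 4.80 at ED and 0.55 to 4.89 at LD (2.09 ± 1.15 SE, adjusted p = 0.398). It was high at ED on ED 3 and ED 5, the arrays with high CYP19A1. Without these 2 arrays its change was 4.85 and passed (limma adjusted p = 0.0489). Leaving them out removes its 2 high ED values while every LD array is kept, so a larger change follows from the choice. Within slides HSD3B2 read 8.07, 4.47, −2.03, 2.90 and −1.06 on slides 1, 4, 6, 7 and 9, of which 6 and 9 hold those 2 ED arrays. Over 23 steroid synthesis genes the median was 0.40, with 6 higher (26.1%, against 7.05% of all features) and 1 lower (4.35%, against 8.06%) at an unadjusted p under 0.05. Leaving out 1 array lowered the median to 0.24 without ED 2, 0.25 without ED 4 and 0.26 without LD 3 or LD 4. Among the higher members were the cholesterol carriers STARD5 (1.71) and STARD4 (0.96) and the cortisol-activating enzyme HSD11B1 (1.98). The 15 theca interna markers had a median of 0.01.

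LHCGR, the LH receptor gene, was even at ED (−2.15, −2.03, −1.94, −2.40 and −2.28) and wide at LD (−5.96 to −0.63, median −2.42), with a change of −0.62 ± 0.67 SE. LD 1 and LD 9 read −5.96 and −5.19, and the other 7 LD arrays were at −2.58 or above. Other LHCGR probes read −0.19 ± 0.60 SE and −0.22 ± 0.65 SE. NR5A1, a transcription factor of steroid cells, read −0.36 ± 0.39 SE, with LD 1, LD 6 and LD 9 at −3.16, −3.01 and −2.92 and the other LD arrays at −1.46 or above. Other NR5A1 probes ran from −0.44 to 0.41. NR3C1, the glucocorticoid receptor gene, ran from −0.22 to −0.54 at ED and from −2.19 to −0.54 at LD with the nearest arrays side by side but no overlap (−0.71 ± 0.23 SE, adjusted p = 0.191). Other probes of NR3C1 read −0.63 ± 0.20 SE and −0.21 ± 0.17 SE.

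Most hedgehog targets read lower at LD. Of 9 tested, 8 lay below 0, 4 (44.4%, against 8.06%) were lower at an unadjusted p under 0.05, and the median was −0.60. GLI1 read 0.84, 2.23, 1.02, 1.51 and 0.34 at ED and −3.76 to −0.02 (median −0.45) at LD. The stages did not overlap, and LD 6 was far below the other LD arrays (−2.06 ± 0.68 SE, adjusted p = 0.189).

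PTCH1, the receptor that is itself a target, read −1.42, −0.49, −1.51, −1.70 and −2.38 at ED and −4.73 to −1.85 (median −3.47) at LD. Only LD 7 lay within the ED range (−1.94 ± 0.40 SE, adjusted p = 0.0727), and the gene's 7 probes ranged from −2.09 to 0.12. HHIP, a feedback inhibitor, read −1.52. The list's median difference was −0.86, −1.36, −0.50, −0.92 and −0.89 within slides 1, 4, 6, 7 and 9, and −0.72 without slide 7. With normexp background correction it was 0.03 while the median of all features moved to 0.21. From ED to PO, a comparison that shares the ED arrays, the list's median was −1.62, against −0.60 to LD.

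**Figure D3:**
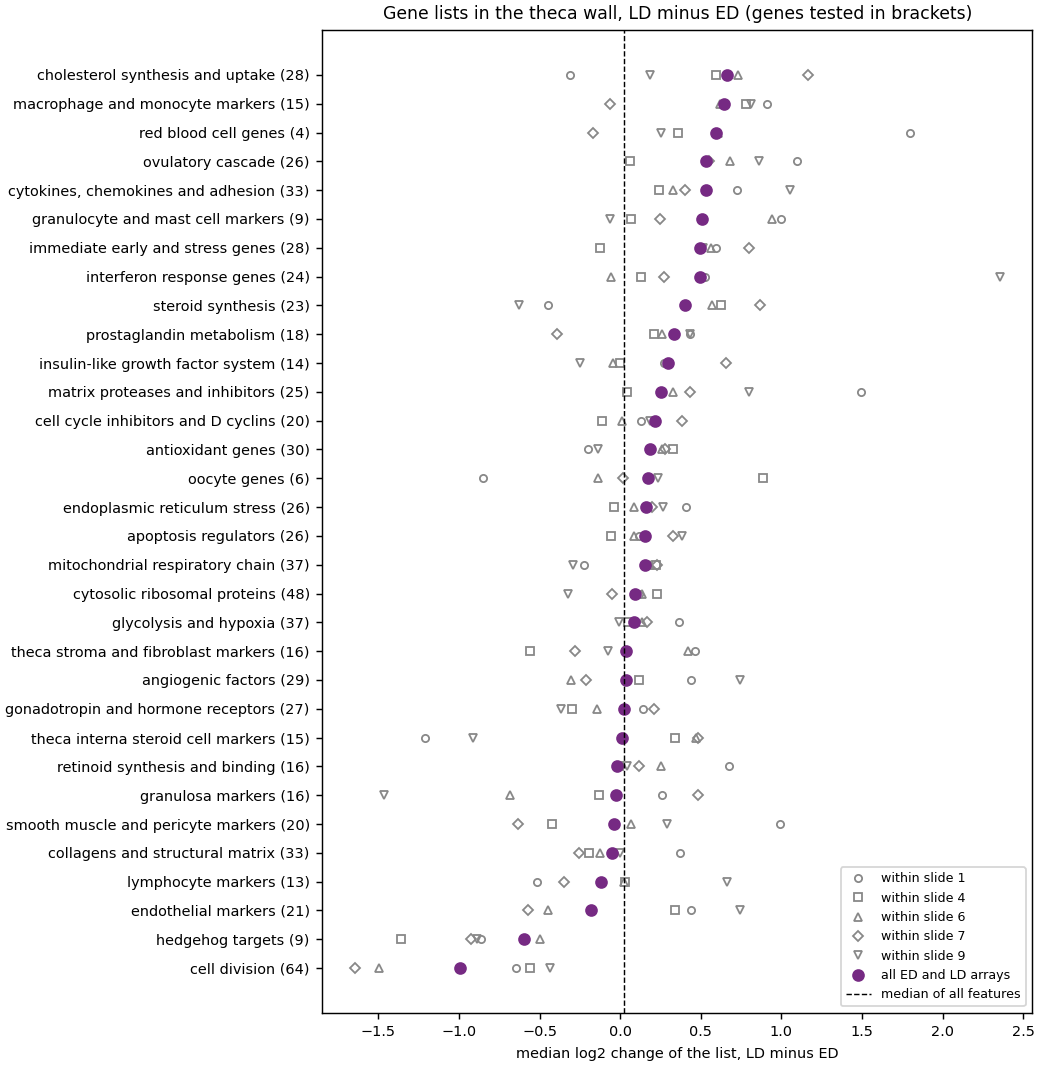
Median change from ED to LD (log2) of the 32 gene lists, with the median difference within each of the 5 slides that hold both stages and a dashed line at the median of all features (0.02). Cell division (−0.997) and hedgehog targets (−0.60) lie lowest, cholesterol (0.66) and macrophage markers (0.65) highest.

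Most macrophage and monocyte markers read higher at LD. Of 15 tested, 14 lay above 0 and 8 (53.3%, against 7.05%) were higher at an unadjusted p under 0.05, with a median of 0.65 and 0 passing the adjusted threshold. Leaving out 1 array gave 3 to 9 such members, 3 without ED 3 and 5 without ED 2 or ED 5, and medians of 0.57 to 0.83. Without both ED 3 and ED 5 there were 0 of 15, and the median was 0.47. CD14, a co-receptor for bacterial lipopolysaccharide, read 0.68, −0.46, −0.55, 1.30 and −0.63 at ED and 0.31 to 3.84 (median 1.20) at LD, with overlap (1.64 ± 0.58 SE, adjusted p = 0.214). MARCO (1.63), VSIG4 (1.03) and MSR1 (0.78), all receptors for uptake, and the complement genes C1QA (0.73) and C1QC (0.64) were higher at an unadjusted p under 0.05, and CD163 read 0.34. C3AR1, the receptor for complement C3a and outside the list, read 1.24 ± 0.30 SE (adjusted p = 0.102).

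The summed macrophage level was 5.14 to 11.3 at ED, 8.47 to 25.5 at LD and 17.9 to 56.3 at PO. LD arrays overlapped both the ED and the PO range. On slide 7 the list's median difference was −0.06, against 0.62 to 0.91 on the other 4 slides. Lymphocyte markers had a median of −0.12, and CD3E, a T cell receptor component, read −0.88 ± 0.31 SE. SAA1, serum amyloid A, was well above background on 1 of 5 ED and 8 of 9 LD arrays (−8.89 to −7.02 at ED, −6.94 to −2.16 at LD, adjusted p = 0.128), so its change of 2.67 is not exact. The calcium-binding neutrophil protein gene S100A12 read 3.09 ± 1.37 SE, with LD values from −6.30 to 2.93.

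Among cytokines and adhesion genes, 7 of 33 (21.2%, against 7.05% of all features) were higher and 1 (3.03%, against 8.06%) was lower at an unadjusted p under 0.05, with a median of 0.53. With 1 array left out there were 3 to 9 higher members, 3 without ED 2 and 4 without ED 3 or ED 5. CCL2, which draws monocytes, read 2.13, IL1RN, an interleukin 1 antagonist, 2.34, IL18 1.04 and CCL5 −0.82. Interferon response genes had a median of 0.49 with 3 of 24 (12.5%) higher, and a median of 0.28 without LD 9. LD 9 stood apart at 2.23 above the ED means, against −0.05 to 0.66 on the other LD arrays.

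Genes of the ovulatory cascade spread widely over the LD arrays. Of 26 tested, 8 (30.8%, against 7.05% of all features) were higher and 1 (3.85%, against 8.06%) was lower at an unadjusted p under 0.05, and the median was 0.53. Without ED 3 and ED 5 there were 3 higher members, and the median was 0.39. EREG, an epidermal growth factor ligand, read 2.90, HAS2, a hyaluronan synthase, 2.38, TNFAIP6, a hyaluronan-binding protein, 2.26, and CEBPB, a transcription factor, 1.19. PTGS2, the prostaglandin synthase gene, read −0.51 ± 0.38 SE, and its probes ranged from −0.51 to 1.17.

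PLAT, tissue plasminogen activator, read 0.52, −0.90, −0.22, −0.22 and −1.59 at ED. On LD 1 to 9 it read 4.33, 2.93, −0.56, 0.80, 2.84, 4.46, −0.38, −0.12 and 4.23. LD 3, LD 7 and LD 8 were within the ED range and the other 6 above it, and the change of 2.54 ± 0.83 SE did not pass (adjusted p = 0.187).

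ALDH1A3, which makes retinoic acid, read −3.13, −3.40, −4.59, −6.64 and −3.08 at ED and 1.81, 1.03, −3.60, −1.18, 1.51, 3.49, −3.64, −4.65 and 3.87 on LD 1 to 9 (4.02 ± 1.28 SE, adjusted p = 0.176). KRT18, an epithelial keratin on the granulosa list, read −3.16, −3.12, −0.34, −3.67 and −3.06 at ED and −2.09 to 4.16 at LD (median 2.36, 4.23 ± 1.14 SE, adjusted p = 0.126). In both genes LD 3, LD 7 and LD 8 stayed within the ED range, as they did for PLAT. For KRT18 that range reaches up to ED 3 (−0.34) only, and every LD array lay above all the remaining ED arrays.

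**Figure D4:**
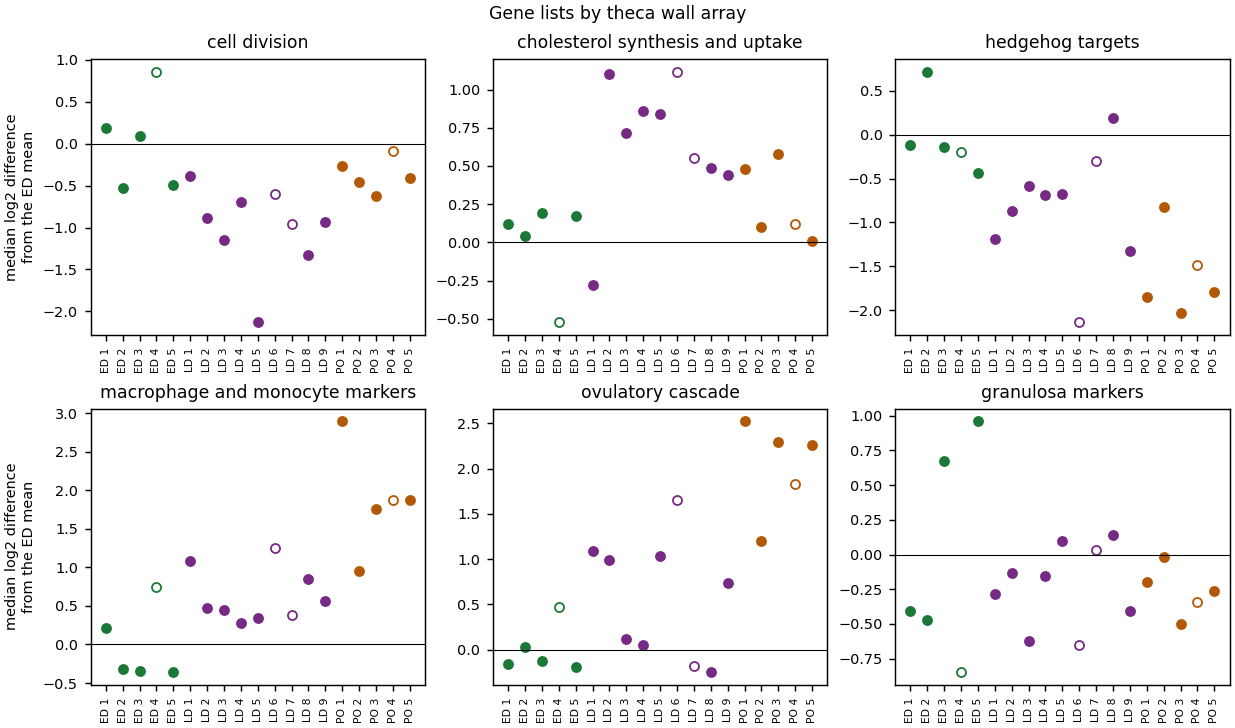
Median of 6 gene lists on each theca wall array relative to the ED mean (log2), by stage. Dots are arrays, open dots those of slide 7. Cell division reached −2.13 on LD 5, cholesterol was below 0 at LD on LD 1 only (−0.28), and the ovulatory cascade ran from −0.25 to 1.65 over the LD arrays.

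The LD arrays were the more varied group. The median SD over features was 0.472 at LD, 0.362 at ED and 0.413 at PO, and it was larger at LD than at ED in 69.6% of features. Pairs of arrays correlated at r = 0.902 to 0.985 within LD and 0.944 to 0.979 within ED. On a line from the ED mean (0) to the PO mean (1) over 23692 features, the LD arrays 1 to 9 lay at 0.69, 0.37, 0.14, 0.15, 0.26, 0.85, 0.13, −0.00 and 0.52. LD 1, LD 6 and LD 9 were nearest to PO, and PO arrays lay at 0.75 to 1.10. Nearest to ED were LD 3, LD 4, LD 7 and LD 8, with LD 3 (0.14) and LD 4 (0.15) side by side. The labels give all 9 as late dominant, and no test was run on a division of them.

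**Figure D5:**
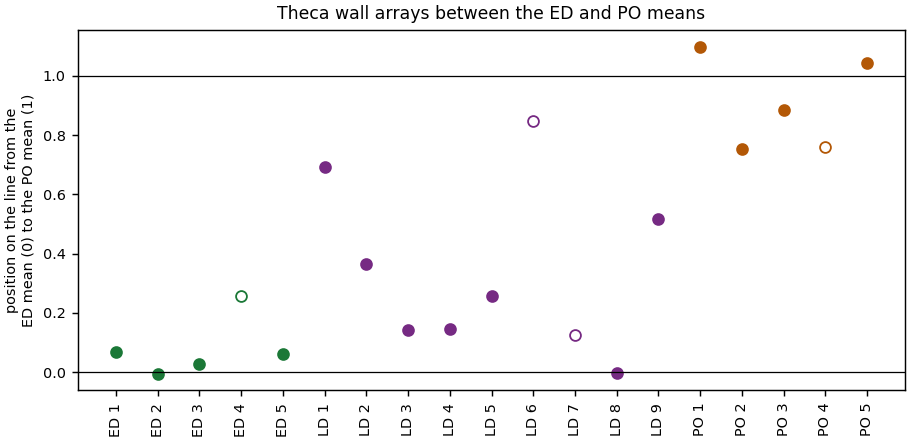
Position of each of the 19 theca wall arrays on the line from the ED mean (0) to the PO mean (1), over 23692 features. Open dots are arrays of slide 7. LD arrays spread from −0.00 (LD 8) to 0.85 (LD 6), and ED arrays stay at or below 0.26.

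Matrix, vessel and muscle lists had medians near that of all features. Collagens and structural matrix genes had a median of −0.05, endothelial markers −0.18, smooth muscle and pericyte markers −0.04 and stromal markers 0.04. ACTA2, smooth muscle actin, read −0.00 ± 0.42 SE, PECAM1, an endothelial adhesion molecule, −0.21 ± 0.33 SE, KDR, the main VEGF receptor gene, −0.27 ± 0.32 SE, VEGFA 0.03 ± 0.17 SE and ANGPT2 −0.08 ± 0.44 SE. These differences lay within their errors, which does not show that the levels were equal. The other KDR probes read −0.66 to −0.29, some of them beyond their SE, and none passed the adjusted threshold. LYVE1, found on lymphatic vessels and some macrophages, read 1.06 ± 0.37 SE (adjusted p = 0.206), and EMCN, on veins and capillaries, −0.75. Cytosolic ribosomal proteins (median 0.09, 48 tested) and respiratory chain genes (0.15, 37 tested) had 0 members at an unadjusted p under 0.05.

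Immediate early and stress genes had a median of 0.50 with 5 of 28 (17.9%, against 7.05% of all features) higher at an unadjusted p under 0.05, including JUNB (1.55), FOSL2 (0.98) and DUSP1 (0.83). The count was 2 to 8 with 1 array left out, 2 without ED 5, 3 without ED 4 and 8 without LD 3 or LD 8, and without both ED 3 and ED 5 there were 0. Prostaglandin genes had a median of 0.33 with 3 of 18 (16.7%) higher, and a median of 0.16 without ED 3, 0.17 without LD 1 and 0.06 without ED 3 and ED 5. HPGD, which inactivates prostaglandins, read 2.18 ± 0.63 SE (adjusted p = 0.142), but was well above background on 3 of 5 ED and 8 of 9 LD arrays, so the size is not exact. Higher at the same p, where all features had 7.05%, were 5 of 25 matrix proteases and inhibitors (20.0%, median 0.25), 5 of 30 antioxidant genes (16.7%, 0.18), 5 of 26 endoplasmic reticulum stress genes (19.2%, 0.16) and 5 of 26 apoptosis regulators (19.2%, 0.15). With 1 array left out these counts ran from 2 (without ED 5) to 9 (without LD 8) for the proteases, 3 to 7 for antioxidant genes, 2 to 7 for endoplasmic reticulum stress and 3 to 6 for apoptosis. GCLC, an enzyme of glutathione synthesis, read 1.27 ± 0.44 SE, with LD values from −0.66 to 2.04. Insulin-like growth factor genes had a median of 0.30 with 0 of 14 past that p in either direction, and the median was 0.08 without LD 1 and 0.15 without LD 6.

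Hormone receptor genes had a median of 0.03 with 1 of 27 higher (3.7%) and 3 lower (11.1%), shares near the 7.05% and 8.06% of all features. Angiogenic factors (0.03), glycolysis genes (0.08), retinoid genes (−0.02) and granulosa markers (−0.02) had medians near 0. Without ED 3 and ED 5 the granulosa median was 0.37, with 3 of 16 members higher and 0 lower at an unadjusted p under 0.05, against 1 and 2 with all arrays. These 2 arrays were left out for their high level of these same genes, so a shift upward follows from the choice. Granulocyte and mast cell markers had a median of 0.51 over 9 genes, and the 4 red blood cell genes 0.59, with LD 1 (1.92) and LD 6 (1.73) the highest of the ED and LD arrays for that list, while PO arrays reached 2.55.

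Other named genes lay near the threshold. On the higher side, SAT1, which breaks down polyamines, read 0.88 ± 0.17 SE (adjusted p = 0.067), with other probes at 0.67 and 0.65. FABP3, a fatty acid carrier, read 1.36 ± 0.28 SE (0.0727) with its 5 probes at 1.26 to 1.45. FABP3 had ED values of 1.82, 0.07, 1.46, 0.79 and 0.79 and LD values of 1.83 to 2.92, which did not overlap. AVL9 (0.72), TAF8 (0.81), SEC24A, a coat protein of vesicles that leave the endoplasmic reticulum (0.51), SPPL2A (0.86) and the kinase MAP3K8 (0.69) followed. On the lower side were PRELID3A (−1.12, adjusted p = 0.0643) and ANKDD1B (−2.53, 0.0706). KLF9 was not above background on any ED array and was on 6 of 9 LD arrays, at least 1.81-fold higher at LD (adjusted p = 0.214).

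Whether the change from ED to LD differed between the theca wall and the granulosa cells was tested on all 34 arrays. Of 27958 features, 0 were called (0%), 2132 had an unadjusted p under 0.05, and the smallest adjusted p was 0.0627, for CAV1, the caveolin gene (theca minus granulosa −4.33 ± 0.75 SE). Leaving out GC LD array 5 raised the count to 271, and leaving out GC LD array 4 to 9. Cell division genes had a median change of −2.30 in GC, against −0.997 in the theca wall, and the difference of these medians was not tested.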

How the data were processed

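RNA was extracted with TRIzol per the labels' protocols, and samples with a RIN (RNA integrity number) over 7.0 were used. A 500 ng input was primed with oligo(dT) carrying a T7 promoter, amplified with the MessageAmp aRNA kit and labelled with Cy3. The deposited intensity values come from Agilent Feature Extraction, version 9.5.3.1 per the file headers and 9.1 per the submitters' processing notes. The processed intensity has local background and spatial trends removed within an array and no scaling between arrays. The deposited table of log2 values states no processing. Its 34 columns correlated at r = 0.999993 or higher with quantile-normalised log2 mean signal, which settles its scale, centring and direction, and column medians were 7.40 to 7.41. It served as an alternative.

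From the processed signal, log2 values were taken after division by the array's 75th percentile, without control spots and outlier-flagged spots. Features that passed the background flag on 5 or more of the 19 theca wall arrays, with at least 2 usable arrays per group, were tested with limma 3.58.1 (lmFit and eBayes, R 4.3.3) with 1 mean per stage. Every adjusted p is from limma. Where a gene had several probes, the brightest on average across the 34 arrays stood for it. An "at least" fold, used where a whole group was below background, compares the bright group's mean with a floor: on each dim array, the probe's own signal or the lowest well-above-background signal, whichever was higher.

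Of 43603 probes, 22170 received a symbol (12127 distinct), matched from the files to a RefSeq table of assembly TB-T2T that was used for names only. The match was by gene number in the name for 15772, symbol for 4752, accession for 645, gene number in the description for 470, protein name for 336 and synonym for 195. A locus number only was found for 1829 and no name for 19604. The 32 gene lists hold 873 entries, 788 of them with a probe.

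The comparison, the lists and the named-gene rule were chosen with earlier results of these data known. The rule takes called genes, filled up to 14 per direction by unadjusted p, a fixed set of theca and granulosa genes, the member of each list with the smallest p (or up to 4 called members), and up to 3 called features without a symbol per direction. List members and histone genes named beyond this were chosen after their values were seen. A few genes that this rule or the lists hold are not reported here. No 2 arrays held identical values. The analysis was tested on simulated data. Alternatives changed the scaling, background correction, filter, arrays, slide block and array weights. The number of arrays limits the precision. Tables and figures used Python 3.11.15 and matplotlib 3.10.9.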

Additional observations from a re-analysis of the deposited data

Results flagged for a closer look

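Dixon's ratio, the gap of the highest or lowest array to its nearest neighbour over the group's range, was above its 95% critical value in 16 of 168 gene and stage groups, where chance flags about 1 in 20. Several flags share an array, and the genes of a list are not independent.

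LD 5 was the low array for 5 mitotic genes, with ratios of 0.564 for CENPF (−5.60, next array −4.33), 0.551 for BUB1, 0.653 for NEK2, 0.593 for CCNB2 and 0.585 for CDC20. ED 4 was the high array for STMN1 (0.752) and CD163 (0.8035). LD 6 was low for GLI1 (0.708, at −3.76 with the next array at −1.12). ED 2 was low for AVL9 (0.828) and IGF1 (0.753) and high for ANKDD1B (0.853). ED 5 was low for IGFBP3 (0.801), ED 3 high for KRT18 (0.815) and ED 1 high for ALDH1A1 (0.737). LD 2 was high for H2AC6 (0.501), and LD 9 for IRF9, an interferon signalling factor (0.631, at 0.08 with the next array at −1.25). The causes of these values were not tested.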

How the results depend on the processing

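The count of 10 called features (4 higher, 6 lower) depended on the processing. It was 20 (3 and 17) with quantile normalisation, 34 (6 and 28) with median centring, 69 (10 and 59) with the deposited values, 28 (11 and 17) with slide as a random block and 465 (181 and 284) with array weights. It was 3 (1 and 2) with no filter, 5 (3 and 2) on the slides with both stages, and 0 with normexp (smallest adjusted p 0.0544, 2293 at an unadjusted p under 0.05), with only the ED and LD arrays (0.0956), with all 34 arrays (0.103), with slide as a fixed block (0.0699) and without slide 7 (0.0512). It was 10 with a filter of 10 arrays and 13 (4 and 9) with every probe on its own. Leaving out 1 array gave 0 to 17: 0 without ED 1, ED 2, ED 3, ED 4, LD 4 or LD 9, 3 without ED 5, 2 without LD 1 or LD 2, 4 without LD 6, 10 without LD 7, 14 without LD 5, 16 without LD 3 and 17 without LD 8. Chosen after seeing the data, leaving out ED 3 and ED 5 gave 4. The cause of these differences was not tested.

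In 29 alternatives STMN1 and CCND2 were called 17 times, H2BC21 14 and KIF15 10 times, each keeping its direction. The fall of A_69_P082701 turned to 0.0101 with normexp, which moved the median of all features to 0.21. Relative to that median, cell division was −0.86 and cholesterol 0.38. Among uncalled genes, the sign changed in 12 alternatives for ACTA2 and 11 for CYP17A1. The retinoid list's median moved from −0.02 to 0.33 with normexp. The granulosa list's moved to 0.37 without ED 3 and ED 5, which were chosen for their high level of that list.

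The layer difference gave 4 calls with the deposited values, 1 with slide as a random block and 0 with the other planned settings. Leaving out 1 array, chosen after seeing the data, gave 0 to 271. No paired analysis was possible because the replicate numbers were given in accession order and the labels share none between stages.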
